A study of Mus musculus with 13 samples.

Results

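Open chromatin was compared between brainstem and telencephalon in cultured mouse oligodendrocyte progenitor cells (OPCs) that carried the H3.3 K27M mutation. Members were chosen by their labels alone, as the libraries of the groups K27M brainstem (3 libraries, cultures 41, 59 and 61) and K27M telencephalon (4 libraries, cultures 41, 51, 59 and 61), which makes 7 of the 13 ATAC-seq libraries of the series. The other 6 came from control brainstem and control telencephalon (3 libraries each, cultures 51, 59 and 61) and entered the merging of peaks, the shortest list length and the comparison of genotypes. The labels name the litters AMGFAP-Cre;K27M, aged P5 to P7, and the study's methods call the driver line hGFAP-Cre, in which Cre recombinase under a GFAP promoter switches on K27M at the endogenous H3f3a locus. Recombination therefore depends on earlier activity of that promoter and need not reach every cell. The study reports it in the large majority of Olig2-expressing cells in pons and corpus callosum, in mice with flag-tagged alleles. Dorsal telencephalon, named cortex in the sample titles, held cortex, corpus callosum and hippocampus, and tissue was pooled by region and genotype, so a library stands for a pool of animals. Cells were panned on an antibody to PDGFRα and kept in proliferation medium with forskolin, CNTF, neurotrophin-3 and PDGF, with no differentiation step. The labels name the other genotype only as control. No source states that cultures of a group came from separate litters, so p-values measure the spread between these libraries only.

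OPCs are the dividing precursors of myelinating oligodendrocytes and arise in every part of the central nervous system. Cells of the neural tube carry a positional code of transcription factors, with Hox genes active from the hindbrain backwards in an order that follows their place in the cluster, and with Emx2, Lhx2, Nr2e1 and Dmrta2 marking the dorsal telencephalon. Iroquois genes act in patterning of the midbrain, hindbrain and spinal cord, and Pax3 in the dorsal neural tube and neural crest. K27M in histone H3.3 blocks the Polycomb methyltransferase, and Polycomb is the main repressor of Hox and other positional genes outside their own region. The question was which of these regional marks in open chromatin are seen between brainstem and telencephalon cultures when the cells of both carry the mutation.

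The sequences below carry the regional differences described further on. Each is a window of 300 bases on the plus strand of mm10, read from the GRCm38.p6 reference, inside a called peak, as near to its middle as a stretch free of annotated exons allowed. Capitals mark matches, on either strand, to 7 motifs, namely TAATTA (homeodomain), TGATTNAT (Hox with Pbx), ACANNTGT (Iroquois), AGGTCA (nuclear receptors), ACAATG (Sox), CAGCTG (bHLH E-box) and TGANTCA (AP-1). The first 4 windows come from promoters or a distal peak called in every K27M brainstem and no K27M telencephalon library. Emx2, Nr2e1, Dmrta2 and Cntn6 stand for the telencephalon side. Irx5 holds the shared peak with the largest regional difference by p-value.
Pax3 promoter (chr1:78196365-78196664): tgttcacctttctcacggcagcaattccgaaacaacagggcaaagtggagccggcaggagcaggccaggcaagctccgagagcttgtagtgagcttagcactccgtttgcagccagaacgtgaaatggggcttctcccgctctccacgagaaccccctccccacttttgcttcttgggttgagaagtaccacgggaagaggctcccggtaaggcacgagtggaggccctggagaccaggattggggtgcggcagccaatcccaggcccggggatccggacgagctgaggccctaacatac
Hoxb3 promoter (chr11:96340644-96340943): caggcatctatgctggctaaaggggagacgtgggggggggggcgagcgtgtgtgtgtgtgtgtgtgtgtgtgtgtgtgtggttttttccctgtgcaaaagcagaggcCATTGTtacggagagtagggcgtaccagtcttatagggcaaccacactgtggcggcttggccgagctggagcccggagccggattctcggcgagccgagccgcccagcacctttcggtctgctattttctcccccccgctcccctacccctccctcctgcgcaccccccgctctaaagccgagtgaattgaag
Hoxb4 promoter (chr11:96319233-96319532): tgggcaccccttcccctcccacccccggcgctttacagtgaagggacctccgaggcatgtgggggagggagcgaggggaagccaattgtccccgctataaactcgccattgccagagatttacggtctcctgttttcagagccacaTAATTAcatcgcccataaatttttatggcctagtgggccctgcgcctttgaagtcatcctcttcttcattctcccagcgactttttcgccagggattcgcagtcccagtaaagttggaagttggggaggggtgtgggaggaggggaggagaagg
Cacna2d3 intron (chr14:29040885-29041184): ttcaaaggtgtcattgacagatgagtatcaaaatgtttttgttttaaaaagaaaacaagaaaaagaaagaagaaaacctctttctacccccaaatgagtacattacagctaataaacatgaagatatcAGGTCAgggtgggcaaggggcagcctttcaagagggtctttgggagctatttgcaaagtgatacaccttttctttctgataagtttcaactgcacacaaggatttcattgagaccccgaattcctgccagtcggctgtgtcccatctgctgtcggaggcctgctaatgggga
Irx5 promoter (chr8:92356545-92356844): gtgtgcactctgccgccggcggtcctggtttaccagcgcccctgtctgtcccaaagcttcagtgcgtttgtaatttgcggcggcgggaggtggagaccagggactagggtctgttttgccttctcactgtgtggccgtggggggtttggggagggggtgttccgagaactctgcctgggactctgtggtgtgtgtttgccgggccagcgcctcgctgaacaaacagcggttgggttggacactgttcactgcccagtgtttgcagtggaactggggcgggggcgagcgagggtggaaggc
Emx2 promoter (chr19:59457801-59458100): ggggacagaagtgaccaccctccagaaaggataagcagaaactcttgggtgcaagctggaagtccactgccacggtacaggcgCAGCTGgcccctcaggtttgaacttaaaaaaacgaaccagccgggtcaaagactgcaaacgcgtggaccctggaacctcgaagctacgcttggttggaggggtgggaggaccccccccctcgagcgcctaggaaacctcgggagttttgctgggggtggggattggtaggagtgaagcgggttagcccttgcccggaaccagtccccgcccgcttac
Nr2e1 promoter (chr10:42582573-42582872): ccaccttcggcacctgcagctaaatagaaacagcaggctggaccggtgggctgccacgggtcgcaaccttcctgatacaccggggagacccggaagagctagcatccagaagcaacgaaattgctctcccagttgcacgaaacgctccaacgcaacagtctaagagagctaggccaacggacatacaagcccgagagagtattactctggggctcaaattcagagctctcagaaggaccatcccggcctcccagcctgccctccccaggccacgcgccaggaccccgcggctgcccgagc
Dmrta2 promoter (chr4:109978344-109978643): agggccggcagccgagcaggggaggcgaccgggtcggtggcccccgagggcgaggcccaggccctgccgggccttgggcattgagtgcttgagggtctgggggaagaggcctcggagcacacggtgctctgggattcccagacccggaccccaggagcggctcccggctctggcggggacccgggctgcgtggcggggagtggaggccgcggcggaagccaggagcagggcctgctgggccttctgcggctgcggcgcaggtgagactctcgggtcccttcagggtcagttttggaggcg
Cntn6 distal (chr6:104872394-104872693): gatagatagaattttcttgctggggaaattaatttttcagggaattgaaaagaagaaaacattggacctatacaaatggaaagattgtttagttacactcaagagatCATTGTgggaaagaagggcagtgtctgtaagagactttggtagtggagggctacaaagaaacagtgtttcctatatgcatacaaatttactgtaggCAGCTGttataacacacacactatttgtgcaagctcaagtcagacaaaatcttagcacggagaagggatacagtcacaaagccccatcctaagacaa

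The Hoxb4 window held 1 TAATTA, the Hoxb3 window 1 ACAATG, the Emx2 window 1 CAGCTG, the Cacna2d3 window 1 AGGTCA, and the Cntn6 window 1 ACAATG and 1 CAGCTG. The windows of Pax3, Irx5, Nr2e1 and Dmrta2 held none of the 7 motifs, which says only that these letters were not in these 300 bases. Promoter windows ran from 56.0% to 73.7% G and C, and the distal windows of Cacna2d3 and Cntn6 held 42.0% and 38.3%.

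What is known of each library is where its peaks were called, with no read counts, so depth is unknown and a missing peak means not called, not closed. List length varied widely inside each group. K27M brainstem libraries held 48487, 34168 and 27768 peaks, and K27M telencephalon libraries 39038, 52164, 30248 and 42238. The ratio of means was 0.899 (two-sided exact permutation p = 0.629, where the smallest p is 0.0286), and brainstem culture 41 and telencephalon culture 51 had the longest lists. Comparisons were therefore repeated with every list cut to its 16879 most significant peaks, the length of the shortest of the 13 lists. Strength of a peak is given as its fold enrichment over local background and, between libraries, as the percentile of that fold within the library's own list (100 for the strongest peak). The mutated gene, H3f3a, had a promoter peak in 7 of 7 libraries, its fold enrichment lying between 3.21 and 3.84 in brainstem and between 2.76 and 3.66 in telencephalon, and the peak does not tell alleles apart. Of 5 OPC markers (Pdgfra, Cspg4, Olig1, Olig2 and Sox10), 4 or 5 had a promoter peak in every library, with Cspg4 called in 1 library of each region. Of 7 microglia markers 1 to 3 did (Cx3cr1, Csf1r, Itgam and Ptprc in 0 libraries), of 6 endothelial markers 1 to 3 (Cdh5 and Tek in 0), of 7 astrocyte markers 4 to 7, of 9 neuron markers 5 to 9 and of 6 mature oligodendrocyte markers 1 to 4 (Mog and Mag in 0). Over all 55450 annotated genes, 15669 to 19252 had a called promoter per library, and 14265 had one in all 7. Markers called in all 7 libraries numbered 1 for microglia, 0 for endothelium, 4 for astrocytes, 5 for neurons and 1 for mature oligodendrocytes. The highest count of each of these lists was in brainstem culture 41 or telencephalon culture 51, the libraries with the longest lists. For neuron markers brainstem culture 59 had the same count. Their part in the regional differences was not tested, and in bulk chromatin fewer cells with an open site and weaker opening per cell cannot be told apart.

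Hox genes, the positional code of hindbrain and spinal cord, had called promoters mainly in brainstem cultures. Of 39 Hox genes, 24, 11 and 9 had a promoter peak in K27M brainstem cultures 41, 59 and 61. In K27M telencephalon cultures 41, 51, 59 and 61, 1, 8, 6 and 2 did. The lowest brainstem library thus stood above the highest telencephalon library, although brainstem culture 61 had the shortest list of the 7. By share of libraries, 23 Hox genes were called more often in brainstem and 3 in telencephalon, while 13 were called in no library. Over all 55450 annotated genes the balance lay the other way, with 3064 called more often in brainstem and 4426 in telencephalon. Control libraries had 12.7 ± 6.66 Hox promoters in brainstem and 3.67 ± 4.04 in telencephalon (SD, n = 3 each).

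**Figure D1:**
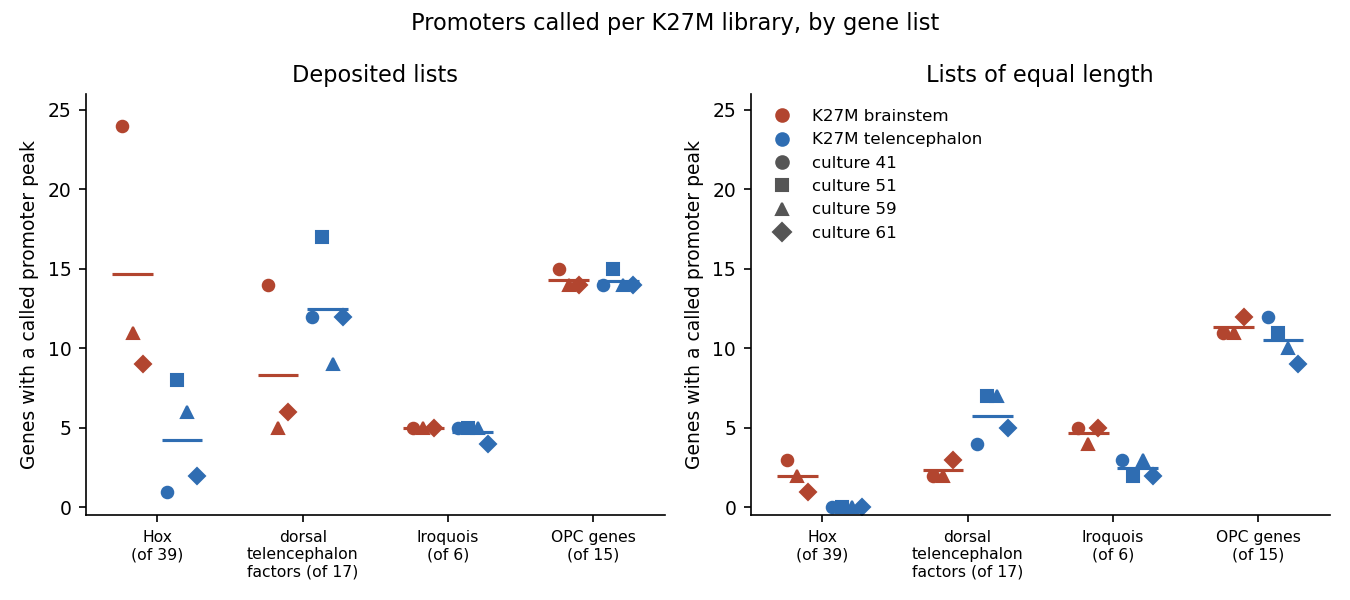
Number of genes with a called promoter peak in each K27M library (points, shape by culture number; horizontal lines are group means) for 4 gene lists, with deposited lists on the left and lists of equal length on the right. Hox counts were 9 to 24 in brainstem and 1 to 8 in telencephalon with deposited lists, and 1 to 3 against 0 with lists of equal length. Of 15 OPC genes 14 or 15 were called in each library with deposited lists.

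The Hox difference was widest for anterior paralogues, a grouping made after the values were seen. Of the 15 genes of paralogue groups 1 to 5, 14, 8 and 8 were called in the 3 brainstem libraries and 0, 3, 4 and 2 in the 4 telencephalon libraries. Of the 24 genes of groups 6 to 13, 10, 3 and 1 were called in brainstem and 1, 5, 2 and 0 in telencephalon, which overlap. By cluster, the 10 Hoxb genes had 5, 3 and 3 promoters called in brainstem and 0 in each telencephalon library. The 11 Hoxa genes had 8, 4 and 4 called against 0, 3, 2 and 1, and these groups did not overlap either. The 9 Hoxc genes had 4, 1 and 1 called against 1, 1, 1 and 1, and the 9 Hoxd genes 7, 3 and 1 against 0, 4, 3 and 0, and both overlapped.

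Complete separation, called in every library of one region and in none of the other, was counted over the 1564 genes found in 3 or 4 of the 7 libraries. It was met by 13 genes in favour of brainstem (0.831%) and 20 in favour of telencephalon (1.28%). By the two-sided Fisher's exact test with Benjamini-Hochberg adjustment 0 genes passed, the smallest adjusted p was 1, and the 33 separating genes were those with an unadjusted p of 0.0286, the smallest p that 3 against 4 libraries allow. Protein-coding genes on the brainstem side numbered 6, and 4 of them were Hox genes, against 0 Hox genes on the telencephalon side. Among the other genes were the antisense genes Hoxaas2 on the brainstem and Dmrta2os on the telencephalon side, named after their values were seen, which peaks cannot tell from their partners. Hoxb3 had fold percentiles of 46.8, 34.8 and 7.72 in brainstem cultures 41, 59 and 61, Hoxb4 of 31.4, 5.13 and 11.9, and Hoxb7 of 7.40, 2.58 and 7.41. Hoxa2, which sets the identity of the second branchial arch and rhombomere, was called at percentiles of 0.837, 0.278 and 1.68. These peaks thus lay mostly in the lower part of their lists, and those of Hoxa2 near the bottom. Hoxb3 lies at chr11:96323326-96347930, and its promoter peak at chr11:96340125-96342445. At equal length Hoxb3 was called in 2 of 3 brainstem libraries and 0 of 4 telencephalon libraries, and Hoxb4, Hoxb7 and Hoxa2 in 0 libraries.

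Hox genes just short of separation were Hoxa5, Hoxc4 and Hoxd1, each called in 3 of 3 brainstem libraries and 1 of 4 telencephalon libraries. Hoxc4 had percentiles of 50.8, 50.5 and 15.6 in brainstem and of 14.3 in telencephalon culture 59. With lists of equal length the counts of Hox promoters were 3, 2 and 1 in brainstem and 0 in every telencephalon library. At that length 36 of the 39 Hox genes were called in no K27M library. All genes then leaned to brainstem as well, with 3523 called more often there and 2742 in telencephalon.

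Pax3 had the highest mean percentile among the protein-coding promoters that separated on the brainstem side with deposited lists. Its promoter peak (chr1:78195396-78198124, at the 5′ end of the gene, and the source of the Pax3 window above) had fold enrichments of 3.30, 3.60 and 2.77 in brainstem cultures 41, 59 and 61, at percentiles of 67.2, 77.7 and 43.1. It was called in 0 of 4 telencephalon libraries. All 3 brainstem libraries kept it, and 0 telencephalon libraries had it, in lists of equal length. Pax3 was the only protein-coding gene that the naming rule gave on the brainstem side at both list lengths. In control libraries it was called in 2 of 3 brainstem and 0 of 3 telencephalon libraries. The remaining brainstem gene with deposited lists, Fam189a2, had percentiles of 27.9, 16.5 and 16.8, and was called in 1 control library of each region.

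**Figure D2:**
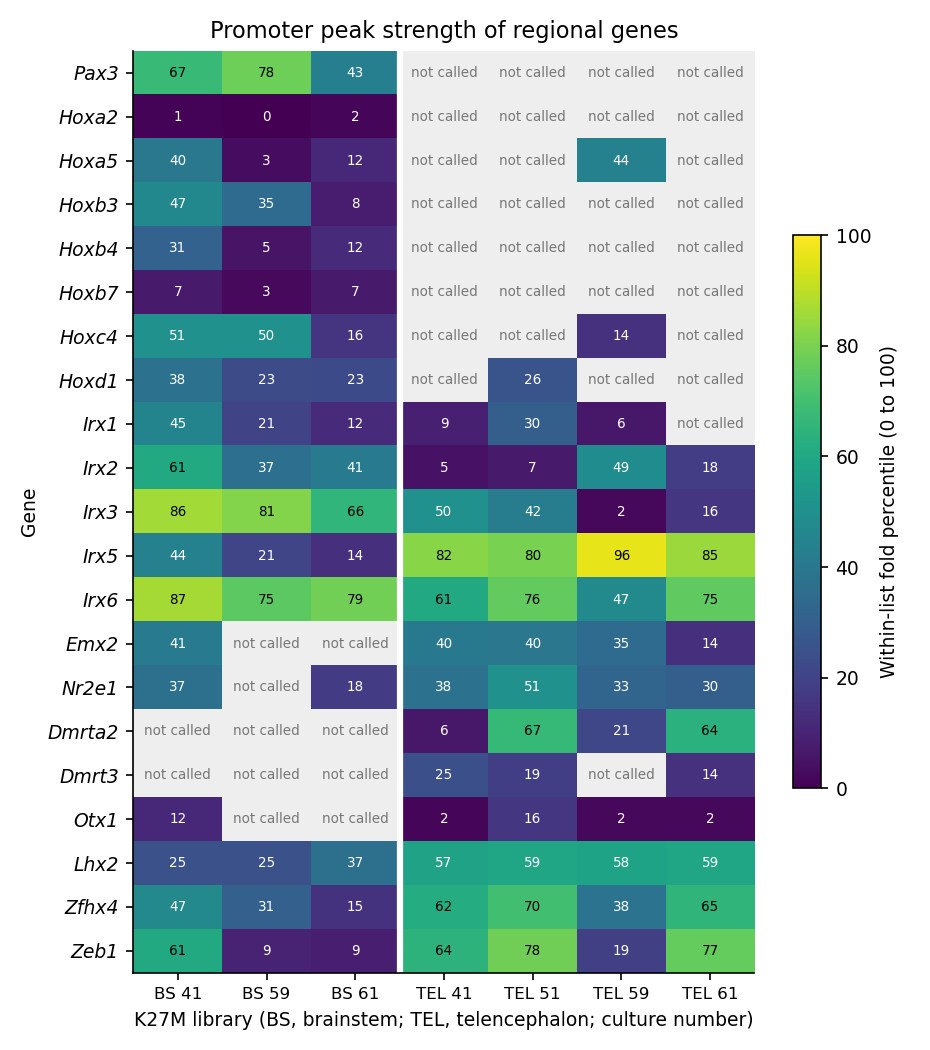
Fold percentile of the strongest promoter peak of 21 regional genes (rows) in the 7 K27M libraries (columns), with grey for not called. Pax3, Hoxa2, Hoxb3, Hoxb4 and Hoxb7 were called in brainstem libraries only, Dmrta2 and Dmrt3 in telencephalon libraries only, and Irx3 and Irx5 had opposite gradients.

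Telencephalic transcription factors showed the reverse pattern, with more overlap between groups. Of 17 factors of the dorsal telencephalon, 14, 5 and 6 had a called promoter in the brainstem libraries and 12, 17, 9 and 12 in the telencephalon libraries. Brainstem culture 41, with the longest brainstem list, overlapped the telencephalon group. With lists of equal length the counts were 2, 2 and 3 against 4, 7, 7 and 5, and the groups no longer overlapped. By share of libraries 10 of the 17 were called more often in telencephalon and 4 in brainstem with deposited lists, where all genes also leaned to telencephalon (4426 against 3064). With lists of equal length 6 and 1 were, where all genes leaned to brainstem (2742 against 3523).

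Dmrta2, a factor of cortical progenitors, was the listed gene that separated the regions with deposited lists. Its promoter had percentiles of 6.43, 67.0, 21.3 and 63.8 in telencephalon cultures 41, 51, 59 and 61, and was called in 0 of 3 brainstem libraries. The related gene Dmrt3 was called in 3 of 4 telencephalon libraries and 0 of 3 brainstem libraries. The control libraries did not share this pattern at Dmrta2, which was called in 2 of 3 control libraries of each region. Emx2, which patterns cortical areas, was called in 4 of 4 telencephalon libraries at percentiles of 14.0 to 40.3 and in brainstem culture 41 at 41.4. Nr2e1, an orphan nuclear receptor of forebrain stem cells, was called in 4 of 4 telencephalon libraries at 30.2 to 50.7 and in 2 of 3 brainstem libraries at 36.8 and 17.9. Each of Emx2 and Nr2e1, in lists of equal length, was called in 4 of 4 telencephalon and 0 of 3 brainstem libraries.

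Lhx2, a selector gene of cortical fate, was called in all 7 libraries and was looked up outside the naming rules. Its strongest promoter peak had percentiles of 24.9, 24.9 and 36.9 in brainstem and 57.5, 58.9, 58.0 and 58.9 in telencephalon. The groups did not overlap, and the telencephalon libraries lay within a narrow range. At the merged peak found in all libraries the difference was -24.3 points (SE 12.8; limma, unadjusted p = 0.0765), which did not pass. Over the 3 dorsal telencephalon factors with such a promoter peak the median difference was -2.03 points, and 0 had an unadjusted p under 0.05 (limma). Among all 11792 shared promoter peaks the groups were apart at 208 higher in telencephalon and 160 higher in brainstem. Control libraries did not hold this order at Lhx2, with 54.3, 63.8 and 33.8 in brainstem and 75.3, 35.3 and 74.4 in telencephalon. Otx1 was called in 4 of 4 telencephalon libraries and 1 of 3 brainstem libraries, at percentiles of 1.85 to 15.7 in telencephalon and 11.5 in brainstem culture 41.

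With lists of equal length, 1643 genes could be tested, and 32 (1.95%) separated in favour of brainstem, 20 (1.22%) in favour of telencephalon. By Fisher's exact test 0 passed the Benjamini-Hochberg adjustment (smallest adjusted p = 0.903), and the 52 separating genes had an unadjusted p of 0.0286. The larger count thus moved from the telencephalon side to the brainstem side once list length was equal. With Pax3, the genes named on the brainstem side included Zfp850, a zinc finger gene (79.2, 83.2 and 89.5 in brainstem; 49.3, 81.0, 69.8 and 69.4 in telencephalon, deposited lists, which overlap), and Cpeb1, a regulator of mRNA polyadenylation (81.8, 79.7 and 67.6 in brainstem; 61.9, 59.3, 62.1 and 37.2). The others named there were Fam221a, Akap2, Ssb, Zfp13, Zscan10, and Bbof1 with Entpd5, which share 1 peak. Zfp13 and Zscan10 had the same percentiles in brainstem with deposited lists (76.3, 58.7 and 59.0), so they rest on the same peaks there. On the telencephalon side Dgkd, a diacylglycerol kinase, had 52.3, 61.9 and 45.5 in brainstem and 62.0, 78.0, 90.6 and 87.5 in telencephalon. Lpar5, a receptor for lysophosphatidic acid, and Tecta were called in 4 of 4 telencephalon and 2 of 3 brainstem libraries with deposited lists, and Zfhx4, Dennd5a and Zeb1 in all 7. The equal-length lists were cut by significance, and the fold percentiles of Zfhx4 and Zeb1 in the deposited lists overlapped between regions.

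Outside the regional genes, the promoters that separated on the telencephalon side with deposited lists were weak and mixed in function. They belonged to Pik3ap1, an adaptor of PI3-kinase signalling, to Gjc1, a gap junction connexin, to Bbs1, a subunit of the ciliary BBSome, to Fes, a tyrosine kinase, to 1700016H13Rik, and to Nup62cl and Pih1h3b, which share 1 peak on the X chromosome. Their percentiles ran from 3.21 to 49.2, and 0 of them were called in every telencephalon library and no brainstem library in lists of equal length.

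Iroquois genes, homeobox factors in the clusters Irx1 to Irx2 to Irx4 and Irx3 to Irx5 to Irx6, were open in both regions and differed by member. Of the 6 genes, 5 had a promoter peak in each brainstem library and 4 or 5 in each telencephalon library, and Irx4 was called in 0. At equal length 5, 4 and 5 were called in brainstem and 3, 2, 3 and 2 in telencephalon, and the groups did not overlap. By share of libraries 3 of the 6 were then called more often in brainstem and 0 in telencephalon, in the direction in which all genes leaned at that length (3523 against 2742). Irx3 and Irx5, neighbours in the same cluster, had opposite orders of the regions, although 0 members passed the adjusted test.

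At the Irx5 promoter the peak (chr8:92355305-92358082, 931 bp from a start site and outside annotated genes at its middle) ranked higher in telencephalon. Its percentiles were 43.9, 20.7 and 13.8 in brainstem and 82.4, 79.9, 96.4 and 85.0 in telencephalon, and the groups did not overlap. The difference was -59.8 points (95% interval -87.7 to -31.8; limma, unadjusted p = 0.000385, adjusted p = 1.00). It had the smallest p of all shared peaks and did not pass the adjustment. In lists of equal length the difference was -60.5 points (limma, unadjusted p = 0.000489, adjusted p = 0.997). Control libraries held the same order at Irx5, with 22.2, 26.9 and 21.7 in brainstem and 59.96, 68.2 and 69.4 in telencephalon, a difference of -42.2 points. The interaction of region with genotype at this peak was -17.5 points (95% interval -52.7 to 17.6; limma, unadjusted p = 0.308).

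At the Irx3 promoter the peak (chr8:91800347-91802221, over an Irx3 exon) ranked higher in brainstem, with percentiles of 86.1, 81.4 and 65.7 against 50.4, 42.4, 1.98 and 16.0. The difference was 50.1 points (95% interval 17.8 to 82.3; limma, unadjusted p = 0.00479, adjusted p = 1.00). In control libraries the difference at Irx3 was 40.1 points, from 67.4, 44.4 and 79.3 in brainstem and 16.0, 17.8 and 37.0 in telencephalon, and again the groups did not overlap. Irx2 differed by 26.6 points in the direction of Irx3 (SE 13.4; limma, unadjusted p = 0.0661), but telencephalon culture 59, at 48.5, lay inside the brainstem range of 36.6 to 60.6. Irx6 differed by 15.1 points (SE 11.0; limma, unadjusted p = 0.189), and its groups overlapped.

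**Figure D3:**
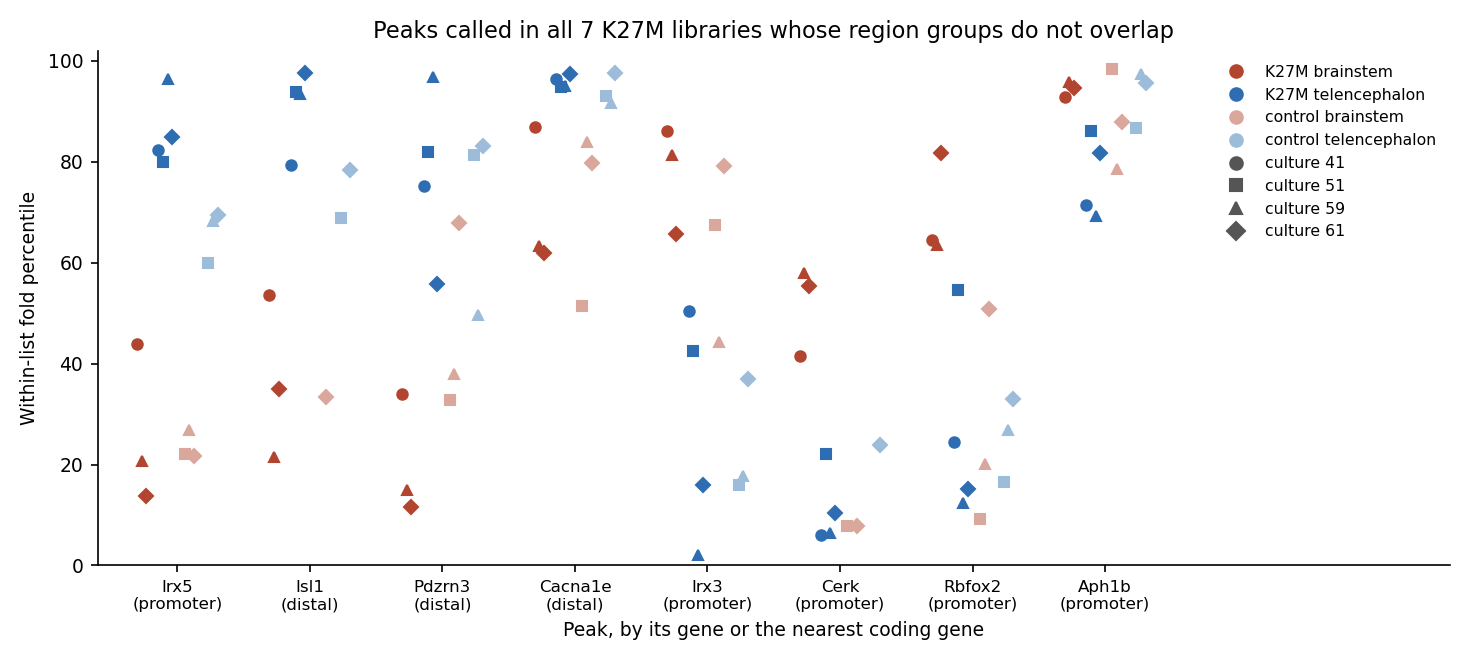
Fold percentile (vertical axis) of 8 peaks called in all 7 K27M libraries, by group (colour) and culture (shape); control libraries are shown where they had the peak. Irx5 and Irx3 keep opposite orders of region in K27M and in control libraries, while the groups of Rbfox2 and Aph1b are apart in K27M libraries and overlap in control libraries.

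Strength was compared over all 19310 merged peaks found in all 7 libraries, of which 11792 lay at promoters and 7518 were distal. By limma 0 passed the adjusted threshold of 0.05 (0%), and the smallest adjusted p was 1.00. At an unadjusted p under 0.05 there were 129 peaks higher in brainstem (0.668%) and 424 higher in telencephalon (2.2%). The groups did not overlap at 251 peaks higher in brainstem (1.3%) and 478 higher in telencephalon (2.48%), beside a median difference over all shared peaks of -1.23 points. In lists of equal length 10180 peaks were shared, 0 passed (limma, smallest adjusted p = 0.997), and the balance turned. At an unadjusted p under 0.05 there were then 219 peaks higher in brainstem (2.15%) and 179 in telencephalon (1.76%), with 307 peaks apart and higher in brainstem (3.02%) and 239 in telencephalon (2.35%). The 95% interval of a single peak reached 25.2 points to each side (median over peaks), and was narrower at some peaks, such as the one nearest to Epha5, with a difference of -14.6 points (-21.9 to -7.24).

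Of the 478 telencephalon-high peaks with groups apart, 270 were distal and 208 lay at promoters. A distal peak 204990 bp from Isl1, a LIM-homeodomain gene, had percentiles of 53.5, 21.5 and 35.1 in brainstem and 79.3, 93.9, 93.5 and 97.6 in telencephalon (limma, unadjusted p = 0.000414). It was the only peak that the rule named both here and among the distal peaks separating at equal length on this side. A peak 273700 bp from Epha5, an ephrin receptor gene, had 80.1 to 85.8 in brainstem and 91.9 to 99.6 in telencephalon, so that all 7 values were high and the order was still complete. Intronic peaks of Cacna1e, a calcium channel gene, and Pdzrn3, a ubiquitin ligase gene, differed by -25.2 and -57.2 points. The remaining peaks lay near Prag1, Plce1, Pigp, Krt23 and Peg12, with differences of -12.6 to -40.4 points. The names added by lists of equal length were Macc1, Cux2, Zfp369, Plcb1, Fam83d, Txndc2 and Cdh13, and Irx5, Prag1 and Epha5 were named again. Cux2, a homeobox gene of upper cortical layers, had an intronic promoter peak that differed by -48.2 points (limma, unadjusted p = 0.00339) and by -24.5 points in control libraries.

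Brainstem-high peaks lay at promoters of Cerk, a ceramide kinase gene, Rbfox2, a splicing regulator, and Aph1b, a subunit of gamma-secretase, as well as Irx3. Cerk had percentiles of 41.4, 57.9 and 55.4 in brainstem and 6.13, 22.1, 6.43 and 10.5 in telencephalon (difference 40.3 points; limma, unadjusted p = 0.00261). In control libraries Cerk was called in 2 of 3 brainstem libraries, at 7.76 and 7.79, and in 1 of 3 telencephalon libraries, at 23.8, so the order in K27M libraries was not seen there. Distal peaks in this group were nearest to Sec61g, Tmem189, Sdk2, 1500015O10Rik, Psma6 and Tmeff2. The Tmeff2 peak had 91.1, 94.8 and 86.7 against 64.3, 68.2, 41.1 and 60.8, and it separated both K27M and control libraries in lists of equal length. Lists of equal length added peaks near Cog6, Sh3bp5, Tns3, Sap30l, Fgfr1, 9230112D13Rik, Timp3, Tmem220 and Smim15, with differences of 24.1 to 60.1 points.

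Distal peaks separated the regions more often in telencephalon with deposited lists. Of 8417 distal peaks found in 3 or 4 libraries, 52 separated in favour of brainstem (0.618%) and 150 in favour of telencephalon (1.78%). By Fisher's exact test 0 passed the Benjamini-Hochberg adjustment (smallest adjusted p = 0.986), and 202 had an unadjusted p of 0.0286. In lists of equal length 2283 could be tested, and 75 (3.29%) and 81 (3.55%) separated, so the excess in telencephalon was no longer seen. By the same test 0 passed (smallest adjusted p = 0.418), and 156 had an unadjusted p of 0.0286. Leaving out 1 library raised the counts of the deposited lists, up to 410 on the brainstem side without brainstem culture 61 and up to 747 on the telencephalon side without brainstem culture 41, with 711 without telencephalon culture 59. For promoters the highest counts were 72 and 165, without the same cultures. Each library left out lowers the number that must hold or lack a peak, so these counts rise by construction.

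**Figure D4:**
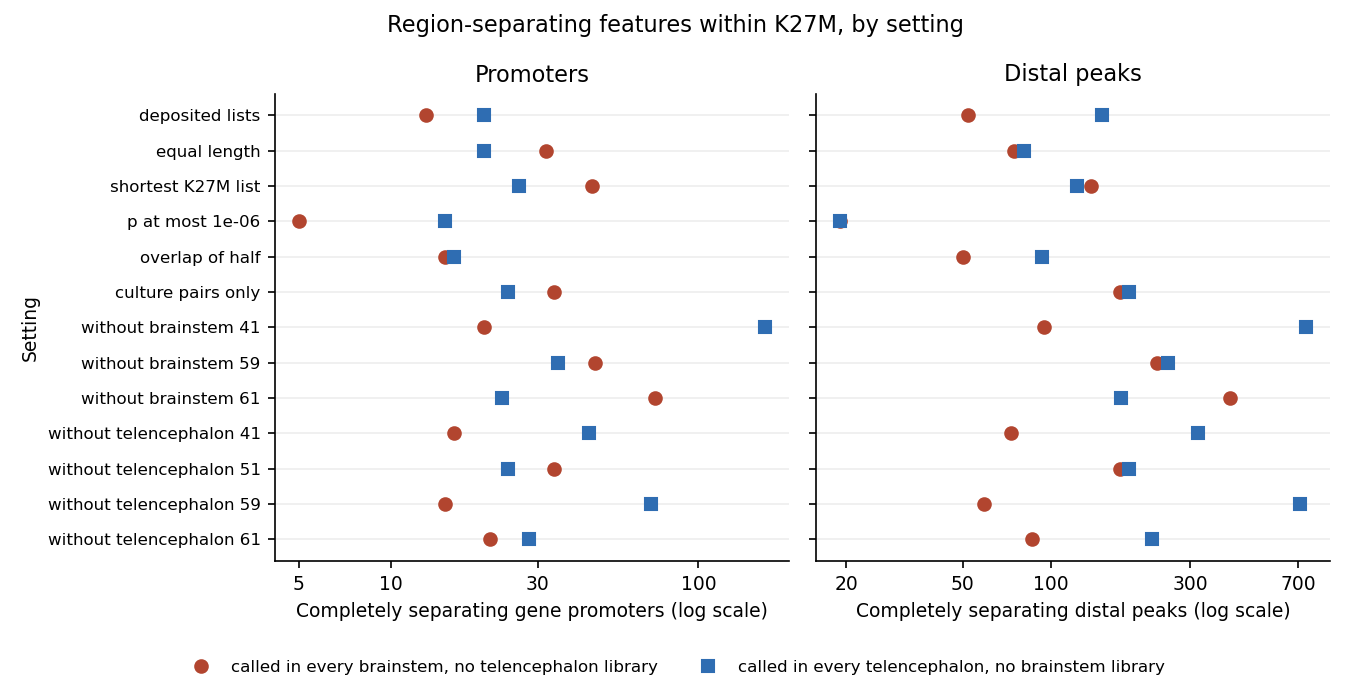
Number of gene promoters (left) and distal peaks (right) that separated the regions completely within K27M, on a log axis, for 13 settings (rows), with circles for the brainstem side and squares for the telencephalon side. Deposited lists gave 13 and 20 promoters and 52 and 150 distal peaks, and the order of the sides changed with list length and with the library left out.

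The strongest distal peak on the brainstem side lay in an intron of Cacna2d3, a calcium channel subunit gene, 20161 bp from the start of Lrtm1 (chr14:29040305-29041760, the Cacna2d3 window above). Its percentiles ran from 65.5 to 99.2 in the 3 brainstem libraries, and in control libraries it was called in 2 of 3 brainstem and 0 of 3 telencephalon libraries. Others lay outside genes, 243538 bp from Zfat, 164946 bp from Ptn and 399767 bp from Atp11b, and in an intron of Gm26561 near Myom1, with mean percentiles of 64.0 to 73.7. Another lay on the Y chromosome, and control libraries had it in 2 of 3 libraries of each region. Peaks on that chromosome numbered 39, 22 and 39 in brainstem and 8, 2, 20 and 38 in telencephalon libraries (two-sided exact permutation p = 0.143). The part of this spread in the Y-linked peak was not tested.

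On the telencephalon side the leading distal peak lay outside genes, 379301 bp from Cntn6, which encodes a contactin of neuronal surfaces (chr6:104872014-104873083, the Cntn6 window above). Percentiles ran from 85.7 to 94.0 in the 4 telencephalon libraries, it was called in 0 of 3 brainstem libraries, and it separated at both list lengths. Control libraries had the opposite balance there, with calls in 2 of 3 brainstem and 0 of 3 telencephalon libraries. Next came peaks in introns of Rgs7, a regulator of G-protein signalling, and Dmd, the dystrophin gene on the X chromosome, a peak in an intron of Spag16 near Vwc2l, and peaks near Slc22a22 and Wrn. In control libraries those near Slc22a22 and Wrn were called in 2 of 3 libraries of each region.

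At equal length the strongest brainstem peaks lay 94249 bp from Dio2, the activating thyroid hormone deiodinase, 377804 bp from Cdh19, 35079 bp from Tmeff2, 74580 bp from Fign, 481575 bp from Nr2f2 and 460649 bp from Cd180. Those near Cdh19, Tmeff2 and Fign also separated the control libraries, 3 of 3 against 0 of 3. With deposited lists each of those 3 was called in 4 of 4 telencephalon libraries, so they differed there by rank in significance. The peak near Nr2f2 was called in 0 of 6 control libraries at equal length. On the telencephalon side a peak over an exon of Togaram1 had 3 of 3 control telencephalon libraries and 1 of 3 control brainstem libraries, and the others lay near Isl1, Mtmr1, Npsr1, Cntn6 and Exoc4.

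Motif content of the distal windows was described over 300 bases centred on each peak, for the 75 brainstem and 81 telencephalon windows that separated at equal length, the 52 and 150 that separated with deposited lists, and 7496 windows of distal peaks found in all 7 libraries. CAGCTG was in 36.0% and 29.6% of brainstem and telencephalon windows at equal length, in 23.1% and 19.3% with deposited lists, and in 28.1% of the shared windows. ACAATG was in 10.7% and 29.6% at equal length, in 11.5% and 22.0% with deposited lists, and in 20.0% of the shared windows. TAATTA was in 2.67% and 16.0% at equal length, in 1.92% and 9.33% with deposited lists, and in 9.42% of the shared windows. TGATTNAT was in 2.67% and 2.47% at equal length, in 13.5% and 5.33% with deposited lists, and in 4.00% of the shared windows. ACAATG and TAATTA thus had the lower share in separating brainstem windows at both list lengths, for TAATTA with 2 of 75 and 1 of 52 windows. CAGCTG and TGATTNAT changed places with the shared windows as list length changed. In distal shared peaks with groups apart, TAATTA was in 11.0% of brainstem-high and 11.2% of telencephalon-high windows. ACAATG was in 16.5% and 23.0% of them, and CAGCTG in 40.7% and 28.6%. TGATTNAT was in 3.30% and 3.35%, ACANNTGT in 9.89% and 16.0%, AGGTCA in 15.4% and 15.2%, and TGANTCA in 11.0% and 12.3%. In the windows that separated, shares of ACANNTGT, AGGTCA and TGANTCA ran from 8.64% to 18.0% over both regions and list lengths. They were 11.3%, 15.2% and 11.7% in the windows of peaks found in all 7 libraries. Mean G and C content was 48.9%, 45.5% and 48.4% in the brainstem and telencephalon windows at equal length and the shared windows, and its part in these shares was not tested. A match is a run of letters and not a bound site.

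Most promoters of OPC identity, signalling and metabolism were called in both regions, so few of these genes could separate the regions at all. Of 15 OPC genes, 14 or 15 had a promoter peak in every library, beside 15669 to 19252 of all 55450 annotated genes. The median difference over the 14 shared peaks of the OPC genes was -1.77 points, beside -0.729 over all genes with a shared promoter peak. In the BMP and TGF-beta pathway (28 genes), the Wnt pathway (28), the Notch pathway (19), the integrins (15) and cholesterol synthesis (18), 0 genes had a shared promoter peak with an unadjusted p under 0.05, against 90 genes higher in brainstem and 185 in telencephalon of 14206 in all. Medians of these lists ran from -1.39 to 2.96 points. Of 16 cell cycle genes only Top2a, a topoisomerase of dividing cells, had an unadjusted p under 0.05, with percentiles of 67.8, 69.9 and 53.7 in brainstem and 81.8, 90.0, 78.4 and 84.4 in telencephalon (limma, unadjusted p = 0.0449, adjusted p = 1.00). Nr2f6 was the other such gene outside the Iroquois list, at 17.6, 4.6 and 2.65 against 67.1, 74.2, 56.7 and 2.90 (limma, unadjusted p = 0.0188, adjusted p = 1.00), where telencephalon culture 61 fell in the brainstem range. Calls of cell cycle promoters at equal length had the order opposite to Top2a. There were 14, 14 and 14 in brainstem and 13, 12, 13 and 12 in telencephalon, which did not overlap. By share of libraries 5 of these genes were called more often in brainstem and 0 in telencephalon. All genes leaned the same way at that length (3523 against 2742).

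Other patterning lists were less clear than Hox, and their counts per library overlapped between regions. Of 21 hindbrain and brainstem factors, 17, 10 and 7 were called in brainstem and 7, 15, 7 and 10 in telencephalon. Of 14 ventral forebrain factors, 12, 6 and 5 were called against 7, 11, 6 and 8, and of 12 genes of the midbrain-hindbrain boundary 10, 5 and 3 against 7, 10, 7 and 5. The 9 Hox cofactors were called in all 7 libraries, as were 14265 of all 55450 annotated genes. In each of the first 3 lists the highest count was in brainstem culture 41, alone or with telencephalon culture 51, the libraries with the longest lists. Gata2, from the hindbrain list, was called in 3 of 4 telencephalon and 0 of 3 brainstem libraries. Of the 11 Pax, Zic and Nr2f genes, 9 were called in all 7 libraries. In lists of equal length Bhlhe22, Irx2, Irx3, Nkx2-2 and Sfrp2 were each called in 3 of 3 brainstem libraries and 1 of 4 telencephalon libraries, and Bmpr1a and Nr2f6 in 0 of 3 and 3 of 4. The K27M-responsive list (4 genes) and the oligodendrocyte maturation list (16 genes) had 2 to 4 and 9 to 13 of their promoters called per library.

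The control libraries allowed the same features to be read in cells without the mutation. Of the 13 brainstem-side promoters, 12 were called in a higher share of control brainstem than control telencephalon libraries, 1 was equal and 0 were lower. Of the 20 telencephalon-side promoters 9 had the same direction, 7 were equal and 4 were opposite. Among all 1564 promoters found in 3 or 4 K27M libraries, 488 had the same direction and 458 the opposite one, so 51.6% of those with a direction agreed. Of the 52 and 150 distal peaks 29 and 52 had the same direction, 19 and 67 were equal, and 4 and 31 had the opposite one. That is 87.9% and 62.7% of those with a direction, beside 50.3% of all distal peaks found in 3 or 4 libraries. In lists of equal length 50 of 75 brainstem peaks and 45 of 81 telencephalon peaks had the same direction, which is 84.7% and 72.6% of those with a direction, beside 58.6% of all distal peaks found in 3 or 4 libraries. Promoters at equal length gave 57.1% for brainstem and 80.0% for telencephalon, beside 54.0%. The groups of the 2 genotypes share culture numbers but no library.

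**Figure D5:**
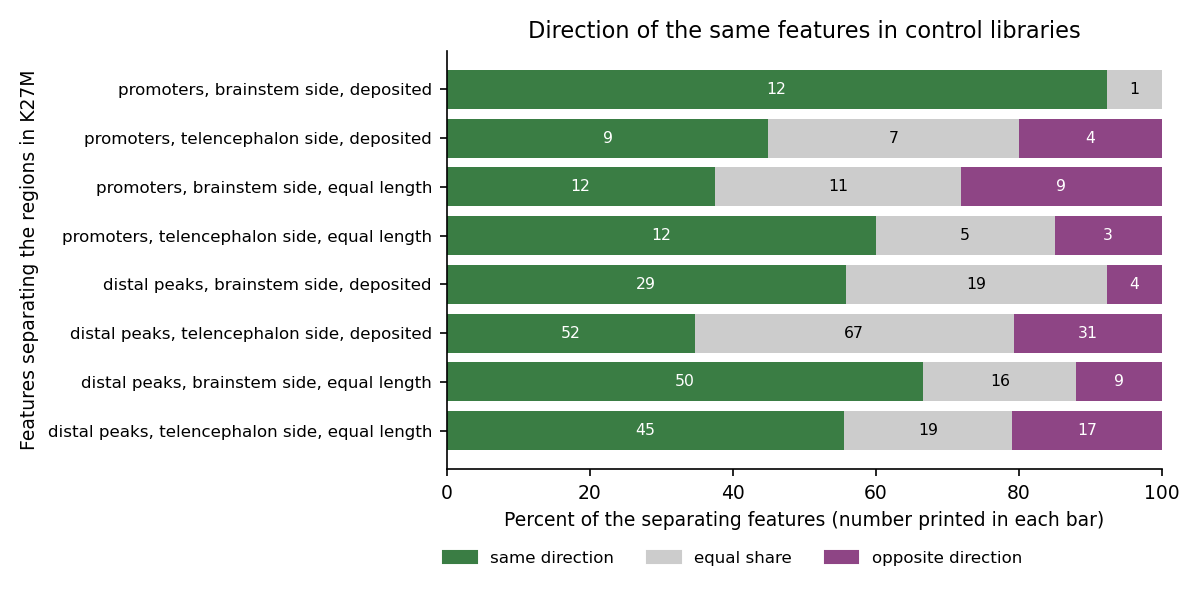
For the features that separated the regions within K27M (rows), the percent that were called in a higher share of control libraries from the same region, an equal share or a higher share from the other region, with numbers in the bars. The 13 brainstem-side promoters of the deposited lists had 12 in the same direction and 0 in the opposite one.

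Across the 13075 merged peaks found in all 13 libraries the regional differences in K27M and in control libraries had a correlation of r = 0.0701 (peaks are not independent and share libraries, so no p is given). The interaction of region and genotype passed the adjusted threshold at 0 peaks (limma, smallest adjusted p = 1.00), and 292 peaks (2.23%) had an unadjusted p under 0.05. Of the named brainstem-high peaks, Sec61g, Rbfox2 and Aph1b had interactions of 24.4, 42.0 and 22.3 points (limma, unadjusted p = 0.00424, 0.0409 and 0.0168). Irx3 and Psma6, named by the same rule, had 9.99 and -3.06 points (limma, unadjusted p = 0.628 and 0.725). None of them passed the adjustment. All were named for their difference in K27M libraries, which is part of the interaction. Their interactions are therefore enlarged by the choice, and these unadjusted p-values are no support for a difference between genotypes. Irx5, Irx3 and Cacna1e had control differences of -42.2, 40.1 and -22.4 points.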

How the data were processed

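ATAC-seq peak lists of 13 libraries were analysed, 1 list per library. Per the labels and the methods of the study, the authors trimmed reads with Trim Galore 0.6.7 and cutadapt 3.4, aligned them to mm10 with BWA 0.7.17-r1188 and removed blacklisted regions. Broad peaks were called by MACS2 2.2.7.1 on each library alone, with a broad cutoff that the study states for its ChIP-seq only, and the lowest deposited −log10 q-value of a list lay between 1.00 and 1.01. The deposited lists give a fold enrichment over local background per peak, which is a ratio not normalised between libraries. They also give the −log10 p-value and −log10 q-value that the authors' caller assigned, and a score, which was used only to check the format. There are no counts, so depth and counting intervals are unknown, and rank within a list replaced scaling between libraries.

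A promoter spanned 2 kb upstream to 1 kb downstream of any GENCODE M21 transcription start of a gene. Peaks of all 13 libraries were merged where they overlapped by at least 1 bp, giving 99746 merged peaks, and distal ones overlapped no promoter. A promoter or merged peak took the highest peak of each library. Detection was compared with Fisher's exact test and Benjamini-Hochberg adjustment, peak number with an exact permutation test, and the fold percentile of peaks found in all libraries with limma 3.58.1 (R 4.3.3, empirical Bayes with trend). An adjusted p under 0.05 was the threshold. Scripts ran in Python 3.11.15 with pandas 2.3.3, scipy 1.17.1 and pysam 0.24.0, and were tested on simulated data. The count model of the study could not be fitted to peak lists.

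Named promoters were the 10 separating protein-coding genes per side with the highest mean percentile, and listed genes that separated or whose share of libraries differed by at least 0.75. Named distal peaks were the 6 strongest separating ones per side, and named shared peaks the 10 per side with the smallest limma p among those whose groups did not overlap. Each rule was applied at both list lengths. The members, lists and tests were chosen with earlier results of these data known. Some items that the rules name are not reported here, while counts cover whole lists. Alternatives were the shortest K27M list (27768 peaks), peaks with p at most 1e-06, another merging, an overlap of 50%, narrower promoters, other scales of strength, a replicate block and leaving out each library.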

Additional observations from a re-analysis of the deposited data

Results flagged for a closer look

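In 94 groups of 4 libraries, 13 had 1 library set apart from the others by Dixon's criterion, where chance gives about 1 in 20. K27M telencephalon is the only group with 4 libraries and so the only one that could be tested. Of the 13, 12 were counts of called promoters in a gene list, which take few values. With deposited lists culture 51 had 15 OPC genes (others 14), 5 OPC markers (others 4) and 3 microglia markers (others 1). Culture 61 had 4 Iroquois genes (others 5), culture 41 had 14 cell cycle genes (others 16), and culture 59 had 5 astrocyte markers (others 6).

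With lists of equal length culture 61 had 6 Hox cofactors (others 8), 10 Wnt pathway genes (others 15 or 16), 2 astrocyte markers (others 3) and 1 endothelial marker (others 0). Culture 51 had 1 gene of the midbrain-hindbrain boundary (others 0), and culture 59 had 0 microglia markers (others 1). The shared peak nearest to Epha5 had a percentile of 74.9 in culture 51 and of 95.4, 98.7 and 99.0 in the others.

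A distal peak on chromosome 11 (16176304 to 16176870, 81137 bp from Vstm2a) separated the regions in opposite directions in the 2 genotypes with lists of equal length. It was called in 4 of 4 K27M telencephalon libraries, at percentiles of 48.2, 75.2, 55.5 and 79.1, and in 0 of 3 K27M brainstem libraries. In control libraries it was called in 3 of 3 from brainstem, at 59.2, 78.6 and 66.9, and in 0 of 3 from telencephalon. The difference between genotypes was not tested.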

How the results depend on the processing

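Tests adjusted over all features called 0 features in every alternative run, so directions and counts are what could change. Detection could not pass without 1 library or with the replicate block. By Fisher's exact test the smallest p there was 0.0667 (2 against 4 libraries) or 0.1 (3 against 3). Complete separation of promoters on the brainstem side (13) became 32 at equal length, 45 with the shortest K27M list, 5 with p at most 1e-06, 34 with a replicate block, 60 with the block at equal length and 15 to 72 without 1 library. On the telencephalon side (20) the block at equal length gave 36, and leaving out 1 library 23 to 165. Distal peaks on the brainstem side (52) became 137 with the shortest list, 19 with p at most 1e-06, 173 with the block, 117 with the block at equal length and 59 to 410 without 1 library. On the telencephalon side (150) they became 81 at equal length, 19 with p at most 1e-06, 93 with an overlap of 50% and 174 to 747 without 1 library.

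Shared peaks with groups apart and higher in brainstem (251) became 553 by percentile among shared peaks, 512 by centred log2 fold, 558 with the shortest list, 149 with p at most 1e-06, 83 with an overlap of 50%, 849 with the block, 574 with the block at equal length and 406 to 1348 without 1 library. Those higher in telencephalon (478) became 239 at equal length, 134 with p at most 1e-06, 149 with an overlap of 50% and 653 to 2598 without 1 library, the highest without brainstem culture 41. Interaction peaks with an unadjusted p under 0.05 (292) became 614 without K27M brainstem culture 41, 519 without control telencephalon culture 51, 739 without control telencephalon culture 61 and 176 without K27M brainstem culture 61. The cause was not tested.

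Differences in share called reversed with the shortest list for Bmpr1a and Nr2f6 (0.25 each), and with p at most 1e-06 for Nkx2-2 (-0.417) and Sfrp2 (-0.167). Of 582 alternatives for named promoters 379 gave the same difference in share. Another 199 gave a changed difference that did not reverse, and these include differences that fell to 0, as for Hoxb4 at equal length. All 380 that gave a value for named shared peaks kept direction, and 64 gave none. These peaks were named because their groups did not overlap, so leaving out 1 library could not reverse them. The ratio of peak numbers ran from 0.757 to 1.01 without 1 library.

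Same-numbered cultures of the regions had correlated deviations of 0.0378, 0.0938 and 0.115 over 19310 peaks. Brainstem culture 41 with telencephalon culture 51, the libraries with the longest lists, had 0.338. The other pairs of different number ran from -0.207 to 0.0769. These correlations do not settle whether equal numbers pair libraries. No source states that they do, so the main tests were unpaired. The replicate block (cultures 41, 59 and 61) leaves out telencephalon culture 51. With 3 or 4 libraries a group, complete separation cannot give a p below 0.0286, and no file gives depth.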
